A study of Mus musculus with 24 samples.

Results

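The genes followed here in pancreatic islets are 8 imprinted genes, Igf2, H19, Mest, Dlk1, Plagl1, Peg3, Cdkn1c and Grb10, and Gpc3, a fetal growth gene. These 9 genes were found on the array by gene symbol or RefSeq accession, which gave 16 noncontrol probes of 41174 in all. All 16 were among the 25931 probes tested, those with signal well above background, in either channel, on 6 arrays or more. Where a gene had several probes, the one with the highest mean level stands for it unless another is named, and for Igf2 that probe was spotted 10 times on each array. On mm9, the files' build, these probes lie at chr7:149836673-149836709 (Igf2), chr7:149761769-149761828 (H19), chr6:30698279-30698338 (Mest), chr12:110698667-110698703 (Dlk1), chr10:12851280-12851339 (Plagl1), chr7:6660440-6660499 (Peg3), chr7:150644753-150644812 (Cdkn1c), chr11:11830965-11831024 (Grb10) and chrX:49625740-49625799 (Gpc3). Whether a probe lies in an exon or a UTR was not looked up here, for want of an annotation of that build.

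NOD mice (NOD/LtJ) become diabetic through autoimmunity. Islets of individual females were collected with collagenase at 10 days and at 4, 12 and 20 weeks of age, 6 animals at each. Each mouse was set on its own array against RNA pooled from 6 female NOD.B10 mice (NOD.B10Sn-H2b/J) of the same age, a congenic strain on the NOD background with the H2b haplotype that served as the healthy control. Neither group was treated, and no transgene or deletion was named. NOD RNA carried Cy5 and pool RNA carried Cy3 on all 24 arrays, so a dye effect of a probe remained in a ratio at 1 age and dropped out of a difference between ages. The pool was 1 control sample per age: its 6 values at an age are repeat measurements, a ratio tested against 0 leaves out the spread between NOD.B10 mice, and a difference in ratio between ages includes the difference between 2 pools. The share of spots well above background ran from 43.2% to 65.4% for NOD RNA and from 40.2% to 61.1% for pool RNA; the dimmest NOD channels were those of replicates 5 and 6 at 20 weeks. Beta cell markers, among them Ins1 and Ins2 (insulin), were above background on all 6 NOD arrays at 10 days for 15 of 15 genes, and so were acinar markers of the exocrine pancreas for 13 of 13. Such tissue values cannot tell fewer cells of a type apart from less RNA per cell.

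Imprinted genes are expressed from the copy of 1 parent. Many of them act on growth before birth, and much of that expression declines after birth in many organs. Igf2 encodes a fetal growth factor that signals through the insulin-like growth factor 1 receptor and the insulin receptor. H19, in the same imprinted cluster, gives a noncoding RNA from the maternal copy, whereas Igf2 is expressed mainly from the paternal copy. Plagl1, Mest, Dlk1 and Peg3 are also expressed from the paternal copy, and Cdkn1c from the maternal one. Gpc3 is X-linked and not known as an imprinted gene; loss of its product, a cell-surface glypican, is known for fetal overgrowth.

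The probes for H19 are shown because this RNA has no coding sequence, and its level rests on these oligos alone. Both lie on the minus strand of chromosome 7 in mm9, the build of the files, at 149761769 to 149761828 for the brighter probe and 149762018 to 149762165, a span longer than the oligo, for the second.
H19 brighter probe: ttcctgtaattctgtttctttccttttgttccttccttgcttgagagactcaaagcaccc
H19 second probe: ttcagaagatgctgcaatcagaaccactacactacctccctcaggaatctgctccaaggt

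RefSeq windows before the start site, on GRCm38.p6, were used for 7 of the 9 genes, with 13 entries among them; those of H19 and Cdkn1c are not used here. Upstream windows of 250 bases are printed for Igf2, Mest, Dlk1 and Gpc3, the genes with a window that were lower in NOD at 10 days, and for Peg3, the gene with a higher mean in NOD. Where a gene had several entries, the one with the most CG pairs is shown. Capitals mark CG pairs, the positions at which imprinted DNA carries methylation.
Igf2, chr7:142658805-142659054, minus strand: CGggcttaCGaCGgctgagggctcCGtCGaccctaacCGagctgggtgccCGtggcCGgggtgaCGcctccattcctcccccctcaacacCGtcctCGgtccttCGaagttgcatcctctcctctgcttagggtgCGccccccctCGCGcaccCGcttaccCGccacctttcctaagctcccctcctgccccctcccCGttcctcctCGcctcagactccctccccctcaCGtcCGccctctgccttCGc
Mest, chr6:30737800-30738049, plus strand: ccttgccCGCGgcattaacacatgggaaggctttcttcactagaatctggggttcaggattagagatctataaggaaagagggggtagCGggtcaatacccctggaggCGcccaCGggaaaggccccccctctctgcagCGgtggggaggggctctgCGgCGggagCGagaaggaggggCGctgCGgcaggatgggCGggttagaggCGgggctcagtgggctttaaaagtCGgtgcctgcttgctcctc
Dlk1, chr12:109452573-109452822, plus strand: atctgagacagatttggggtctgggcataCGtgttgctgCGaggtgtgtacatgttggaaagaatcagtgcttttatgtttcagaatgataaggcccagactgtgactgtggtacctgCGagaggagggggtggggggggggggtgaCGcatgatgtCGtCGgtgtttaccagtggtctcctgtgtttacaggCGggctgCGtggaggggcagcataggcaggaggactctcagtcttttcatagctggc
Gpc3, chrX:52613975-52614224, minus strand: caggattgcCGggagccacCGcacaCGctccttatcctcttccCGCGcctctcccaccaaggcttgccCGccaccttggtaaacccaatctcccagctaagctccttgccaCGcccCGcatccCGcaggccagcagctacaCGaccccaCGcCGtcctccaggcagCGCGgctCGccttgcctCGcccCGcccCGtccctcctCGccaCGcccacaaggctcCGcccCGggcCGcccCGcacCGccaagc
Peg3, chr7:6730420-6730669, minus strand: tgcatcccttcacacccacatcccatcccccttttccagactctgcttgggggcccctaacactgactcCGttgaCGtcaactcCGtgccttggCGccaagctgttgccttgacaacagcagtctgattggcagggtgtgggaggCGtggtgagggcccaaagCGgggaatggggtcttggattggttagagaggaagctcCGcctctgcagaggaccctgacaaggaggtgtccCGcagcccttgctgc
These windows held 22 CG pairs for Igf2, 14 for Mest, 8 for Dlk1, 25 for Gpc3 and 8 for Peg3. For Igf2 and Mest, which had several entries, the choice of the entry with the most pairs raises the number. The other Igf2 entries held 6, 10 and 1, and another Mest entry held 7. Over all 13 entries the median was 10, against 6 over all 32851 windows of this length. The letters GGGGCCCC, the element known to be bound by the zinc finger protein that Plagl1 encodes, were searched on both strands; they read the same on each. Of the 13 entries, 1 held them, that of Peg3 at position -201 from the start, and 0.889% of all windows did. The GC box GGGCGG, on either strand, was in 8 of the 13 entries and in 32.7% of all windows. The Mest entries that start at 30737800 and 30737803 overlap and hold the same box, so the 13 entries are not independent. The arrays did not measure methylation or binding at these windows.

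At 10 days 5 of the growth genes were lower in NOD islets than in the NOD.B10 pool. Igf2 and Mest were lower by more than 5-fold, H19 by 3.15-fold, and Gpc3 and Dlk1 by 2.48-fold and 2.38-fold. Calls required at least a 2-fold difference and an adjusted p (limma, Benjamini-Hochberg) under 0.05. By that rule 5 of the 9 genes (8 of the 16 probes) were called lower and 0 higher, while 1.84% of all probes were called lower at this age and 1.41% higher. The median log2 ratio of the 9 genes was -1.25, against 0.01 over all 18085 genes. In 11 of the 16 probes all 6 mice had the same sign, as had 42.1% of all probes.

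The NOD-channel log2 level of Igf2 at 10 days was lowest at 9.15, had a median of 9.54 and was highest at 10.02, whereas the pool channel lay between 11.90 and 12.10 on the same arrays. Every NOD mouse was below every reading of the pool. The log2 ratio was -2.48 ± 0.30 (SD, n = 6), 5.57-fold lower in NOD, with an adjusted p of 2.01e-13 in limma. The second Igf2 probe gave -2.10 ± 0.28, and the 10 spots of the brighter probe differed from each other within an array by an SD between 0.05 and 0.13. H19 had NOD levels of 8.15 at the lowest, 8.30 at the median and 8.91 at the highest mouse, and pool levels between 9.95 and 10.09. Its ratio was -1.65 ± 0.28 (adjusted p 1.53e-12 in limma), and the second probe agreed within that spread at -1.62 ± 0.23. The 2 RNAs of this cluster were thus both lower in all 6 mice.

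Mest, which encodes a protein of the alpha/beta hydrolase fold, had NOD levels of 9.11, 9.93 and 10.15 (lowest, median and highest of 6 mice) and pool levels between 12.29 and 12.42. No mouse came within 2 log2 units of the pool: the ratios ran between -3.24 and -2.20, with a mean of -2.53 ± 0.40 and an adjusted p of 3.81e-11 in limma. Dlk1, a transmembrane protein related to Notch ligands and known as an inhibitor of adipocyte formation, was at 9.68, 10.17 and 10.92 in NOD, against 11.39 to 11.52 in the pool. Its ratio was -1.25 ± 0.48 (adjusted p 2.29e-07), with the mice spread between -1.84 and -0.53. Gpc3 was spread as widely, at 9.61, 10.25 and 11.14 in NOD and 11.56 to 11.76 in the pool, with a ratio of -1.31 ± 0.59 (adjusted p 3.77e-06). For both genes the groups did not overlap, but the mouse nearest the pool was less than 2-fold below it.

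Cdkn1c and Grb10, which restrain growth, were not called. Cdkn1c, the cyclin-dependent kinase inhibitor p57, had NOD levels of 7.62, 7.94 and 8.26 and pool levels between 8.87 and 8.97. Its ratio of -0.98 ± 0.20 was negative in all 6 mice (adjusted p 7.28e-09) and missed the 2-fold rule; it passed that rule without replicate 1 (-1.01) or replicate 4 (-1.05), with the scanner's processed signals (-1.35) and with an offset of 0 (-1.19). Grb10, an adaptor protein that inhibits signalling of the insulin and insulin-like growth factor receptors, stood at 10.39, 10.66 and 10.75 in NOD, against 11.10 to 11.16 in the pool, a ratio of -0.52 ± 0.17 (adjusted p 0.000139). Its 2 dimmer probes were near 0, at 0.04 ± 0.39 and -0.03 ± 0.11, so the 3 probes of Grb10 did not give 1 value.

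Neither zinc finger gene was called at 10 days, and the 2 had means of opposite sign. Plagl1, a transcription factor known to restrain cell growth, had the largest SD of the 9 genes, with NOD levels of 9.55, 10.66 and 11.45 around a pool at 11.34 to 11.43, and ratios between -1.88 and 0.05. Their mean of -0.79 ± 0.80 had an adjusted p of 0.00609 and was not called. Peg3, a zinc finger protein known from mouse growth and maternal behaviour, had NOD levels of 8.21, 9.02 and 9.62, against 8.18 to 8.40 in the pool, and its ratio was 0.66 ± 0.54 (adjusted p 0.00654), positive in 5 of 6 mice. The second Peg3 probe was positive in all 6 mice, at 0.56 ± 0.19, which was also under 2-fold.

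**Figure D1:**
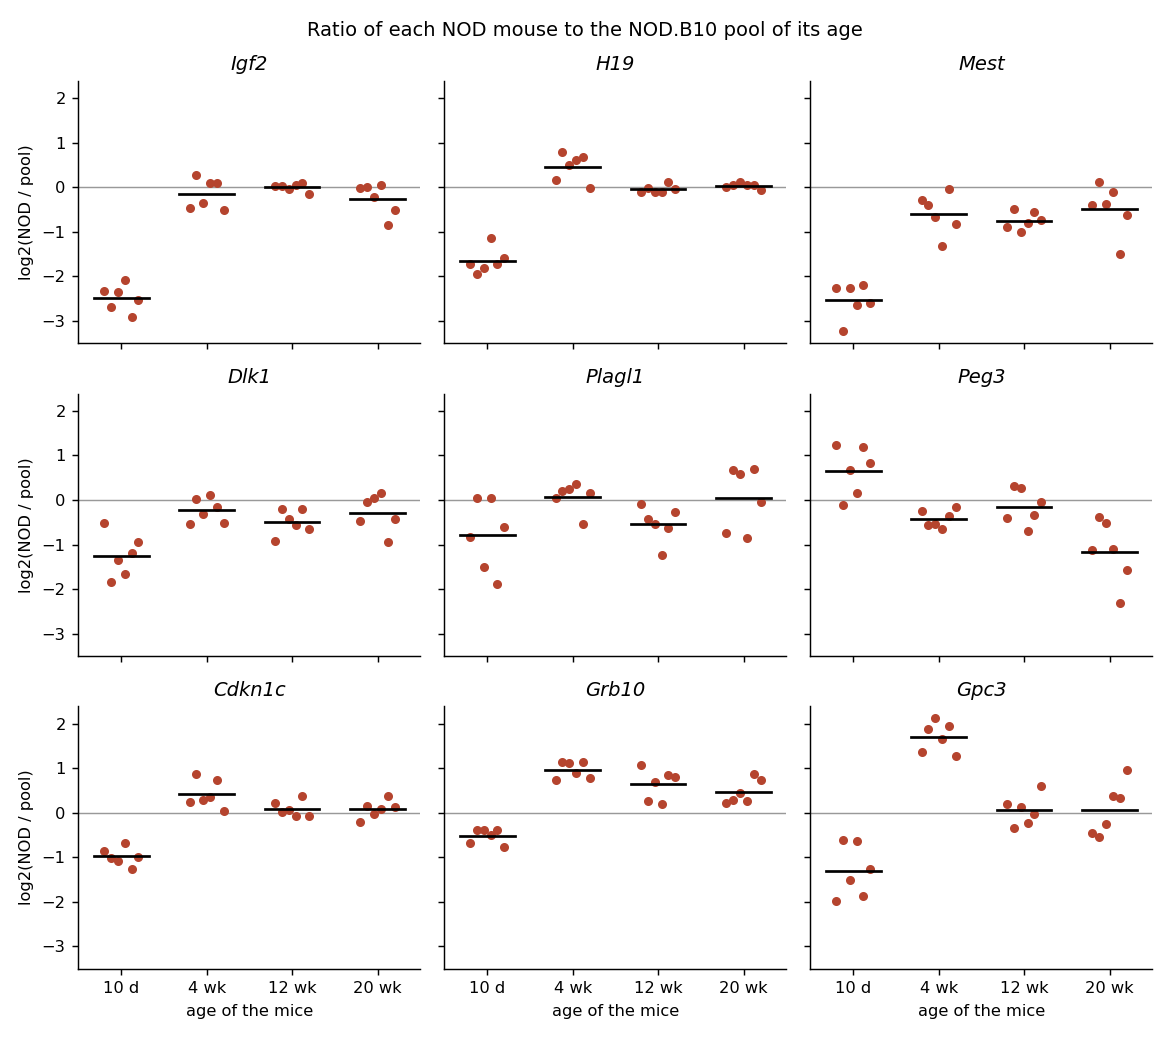
Log2 ratio of each NOD mouse to the NOD.B10 pool of its age, by gene; points are single mice (6 per age), black bars their means, and the grey line marks equal levels. At 10 days the mice lie near -2.5 for Igf2 (mean -2.48) and Mest (mean -2.53), Peg3 is the gene with a positive mean (0.66), and Gpc3 lies above 0 at 4 weeks (mean 1.71) and below 0 at 10 days (mean -1.31).

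The scaling of the arrays bears on these sizes. When arrays were centred on their median ratio in place of loess, the median of all genes at 10 days moved to 0.38, and Igf2 and Mest were still called lower at -1.71 and -1.77. H19, Dlk1 and Gpc3 kept their direction at -0.89, -0.49 and -0.53 but missed the 2-fold rule, Grb10 turned to 0.25, and Peg3 was called higher at 1.40. Cdkn1c and Plagl1, not called with loess either, came to -0.26 and -0.01.

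At 4 weeks the 2 channels of Igf2 overlapped. Its NOD levels were 6.81, 7.09 and 7.60 (lowest, median and highest) and the pool lay between 7.18 and 7.38, inside the range of the mice; the ratio was -0.14 ± 0.34 (adjusted p 0.311 in limma). At 4 weeks 1 of the 9 genes was called higher and 0 lower, where 1.57% of all probes were called higher and 0.717% lower. That gene was Gpc3, with NOD levels of 8.93, 9.39 and 9.78 above a pool at 7.53 to 7.76, a ratio of 1.71 ± 0.34 and an adjusted p of 2.86e-07. All 6 mice of this age were thus more than 2-fold above their pool. The 6 mice taken at 10 days, separate animals, had all been below the pool of that age.

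Grb10 came close to the rule at 4 weeks, with NOD levels of 10.06, 10.10 and 10.49, against 8.95 to 9.37 in the pool, and a ratio of 0.97 ± 0.19 (adjusted p 1.27e-07). It was called when replicate 1 (1.01) or replicate 6 (1.005) of that age was left out, and its dimmer probes were at 0.22 ± 0.15 each. Mest remained below the pool at 4 weeks in every mouse, by -0.59 ± 0.45 (adjusted p 0.00482), and Cdkn1c was above it in every mouse by 0.42 ± 0.31 (adjusted p 0.000519), both under 2-fold.

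At 12 weeks 0 of the 9 genes were called, where 1.7% of all probes were called higher and 1.15% lower. At an unadjusted p under 0.05 in limma, 4 genes differed, namely Mest, Dlk1, Plagl1 and Grb10. Of these, Mest, Dlk1 and Grb10 also had an adjusted p under 0.05 and missed only the 2-fold rule, while Plagl1 had an adjusted p of 0.0751. Mest was at -0.75 ± 0.20 (adjusted p 0.00107) and Dlk1 at -0.49 ± 0.28 (adjusted p 0.0103), both below 0 in all 6 mice, but with median centring, where all genes had a median of 0.50, they turned to 0.06 and 0.30. The scanner's processed signals went the other way and called both (Mest -1.37, Dlk1 -1.002), as did the deposited table, and an offset of 0 called Mest at -1.09. Grb10 was above the pool in all 6 mice at 0.64 ± 0.34 (adjusted p 2.32e-05 in limma), and was called at 1.65 with median centring. For H19 the pool was not above background on any array at 12 weeks, so no fold is given, and at 20 weeks each channel was above background on 2 of 6 arrays. At 20 weeks 1 of the 9 genes was called lower and 0 higher, where 0.98% of all probes were called lower and 3.23% higher. Peg3 had NOD levels of 7.70, 8.83 and 9.50, against 9.87 to 10.02 in the pool, and a ratio of -1.17 ± 0.71 (adjusted p 3.16e-05), below the pool in all 6 mice. That call was lost without replicate 5 (-0.94) and without both of the dimmest NOD arrays (-0.78, adjusted p 0.00202), and the second Peg3 probe was at -0.37 ± 0.30.

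**Figure D2:**
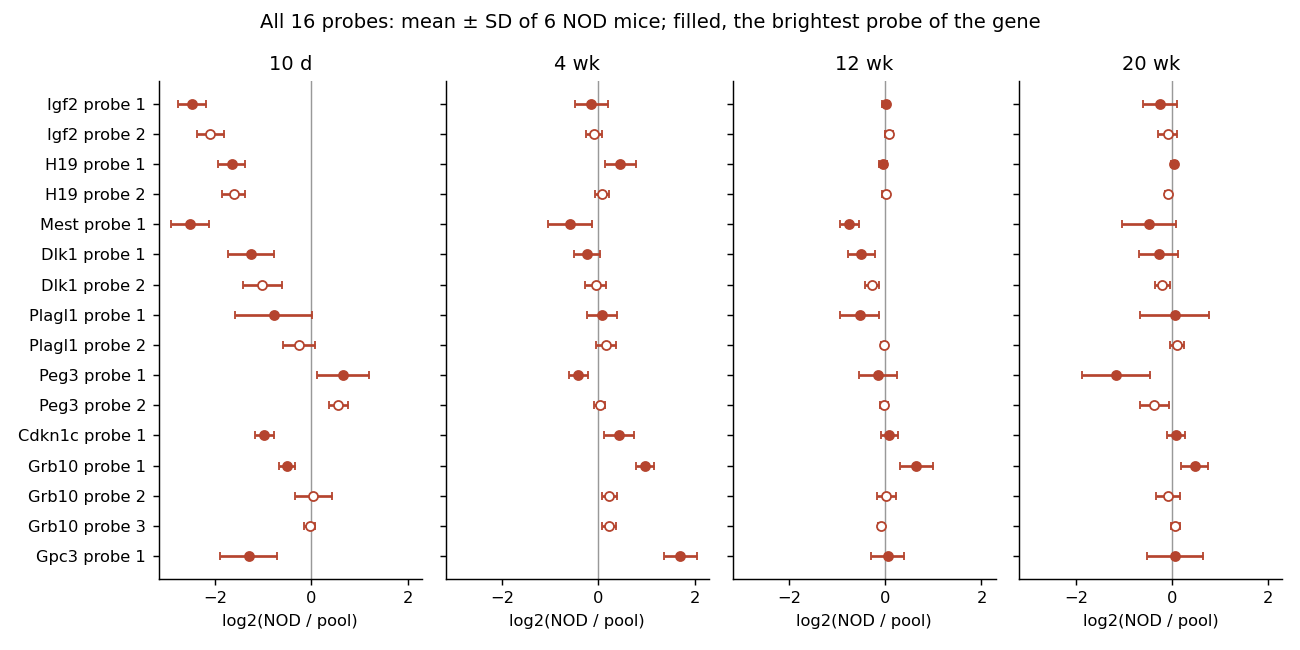
Mean log2 ratio (NOD over pool) of each of the 16 probes at the 4 ages, with the SD of 6 mice as error bars; filled circles are the brightest probe of a gene and open circles its other probes, numbered by brightness. Both probes of Igf2, H19 and Dlk1 lie left of 0 at 10 days, whereas probes 2 and 3 of Grb10 lie near 0 there (0.04 and -0.03) and probe 1 at -0.52.

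The fall with age was then read in each channel. In NOD islets, 7 of the 9 genes (9 of 16 probes) were called lower at 20 weeks than at 10 days and 0 higher. For all probes, 1.3% were called lower and 2.86% higher. The 7 genes were Igf2, H19, Mest, Dlk1, Plagl1, Grb10 and Gpc3, and the median log2 difference of the 9 genes was -1.56, against -0.01 over all genes. The second probes of Igf2 (-0.60) and Plagl1 (-0.37) and the dimmer Grb10 probes (-0.83 and -0.27) were lower but not called. Those of H19 (-1.03) and Dlk1 (-1.41) were called. In the NOD.B10 pools the 7 genes were lower at 20 weeks by larger amounts, by their brightest probes. Each age had 1 pool, so those values carry no test.

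Igf2 in NOD islets averaged 9.53 ± 0.30, 7.14 ± 0.31, 6.98 ± 0.14 and 7.35 ± 0.29 at 10 days, 4 weeks, 12 weeks and 20 weeks (log2 level, SD, n = 6 each), above background on 6, 6, 6 and 5 arrays. The level fell by 2.39 ± 0.15 (SE) between 10 days and 4 weeks (adjusted p 1.43e-09 in limma) and had no further call. In the pools it averaged 12.01, 7.28, 6.97 and 7.60. At 20 weeks it was 4.55-fold lower than at 10 days in NOD islets and 21.2-fold lower in the pools. By the second Igf2 probe, above background on 3 of 6 NOD arrays at 20 weeks, these were 1.52-fold and 6.08-fold. H19 in NOD islets averaged 8.38 ± 0.27, 6.80 ± 0.32, 6.29 ± 0.07 and 6.18 ± 0.05, and its probe was above background on 6, 6, 3 and 2 of the 6 arrays. Its pool level was 10.03, 6.34, 6.33 and 6.15, above background on 6, 6, 0 and 2 arrays. By 12 weeks H19 was therefore near the limit of detection in both strains, and the measured fall in NOD of 4.57-fold between 10 days and 20 weeks (adjusted p 2.69e-11 in limma) ends at that limit, which can only understate it.

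Mest stayed well above background throughout, with NOD means of 9.82 ± 0.38, 8.44 ± 0.46, 7.78 ± 0.20 and 8.26 ± 0.48 and pool means of 12.35, 9.03, 8.53 and 8.74. Its NOD level fell by 1.39 ± 0.22 between 10 days and 4 weeks (adjusted p 8.82e-05). Dlk1 averaged 10.20 ± 0.45, 8.65 ± 0.29, 7.84 ± 0.25 and 8.28 ± 0.38 in NOD, against 11.45, 8.87, 8.34 and 8.57 in the pools, and fell by 1.56 ± 0.19 in NOD over the first interval (adjusted p 8.16e-06). These 2 genes, Igf2 and H19 were the 4 called lower in NOD at 4 weeks than at 10 days, and 0 were called higher. By probe, 5 of the 16 were called lower, where 1.09% of all probes were called lower and 1.55% higher. In 6 of the 16 probes no 4-week mouse overlapped a 10-day mouse, as was so for 12.6% of all probes. The second Igf2 probe overlapped and was not called (-0.70).

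For Gpc3 the mean NOD level was lower at each later age, and the pool was lowest at 4 weeks. NOD means were 10.35 ± 0.61, 9.37 ± 0.34, 8.21 ± 0.41 and 8.10 ± 0.62, and pool means were 11.66, 7.67, 8.16 and 8.03. Between 10 days and 4 weeks the NOD level differed by -0.97 ± 0.28 (adjusted p 0.0131), not called; it passed the 2-fold rule, between -1.12 and -1.02, without replicate 1, 3 or 5 at 10 days or replicate 2, 3 or 5 at 4 weeks. It was also called with an offset of 0 (-1.07), with quantile scaling (-1.04) and with the scanner signal set to its 75th percentile (-1.25), so the timing of the first call depends on the processing. Between 4 and 12 weeks it fell by 1.16 ± 0.28 (adjusted p 0.00342), the 1 call among the 9 genes in that interval, where 0.798% of all probes were called lower and 3.52% higher. The pool was 15.9-fold lower at 4 weeks than at 10 days. Grb10 had NOD means of 10.61 ± 0.16, 10.21 ± 0.20, 9.61 ± 0.36 and 9.35 ± 0.31, with a call over the whole period (-1.26 ± 0.15, SE, adjusted p 3.13e-06) and in none of the 3 intervals. Its pool means were 11.12, 9.25, 8.97 and 8.88, most of the fall lying before 4 weeks.

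Cdkn1c was the dimmest of the genes that stayed measurable on all NOD arrays and did not pass the 2-fold rule with age: NOD means were 7.95 ± 0.22, 7.42 ± 0.30, 7.08 ± 0.22 and 7.18 ± 0.18, a difference of -0.77 ± 0.13 between 20 weeks and 10 days (adjusted p 0.00015) that was called with an offset of 0 (-1.11) and with the scanner signal (-1.40), against pool means of 8.93, 6.999, 6.99 and 7.10. Plagl1 averaged 10.61 ± 0.78, 9.62 ± 0.30, 8.86 ± 0.42 and 9.45 ± 0.73 in NOD and 11.40, 9.55, 9.39 and 9.39 in the pools. Between 10 days and 4 weeks the NOD level of Plagl1 differed by -0.99 ± 0.33, not called. The difference passed the rule without replicate 1, 3 or 5 at 10 days or replicate 2, 3, 4 or 6 at 4 weeks (-1.20 to -1.004). It was also called with an offset of 0 (-1.04), with quantile scaling (-1.01) and with the scanner signal (-1.17). The called Plagl1 fall between 10 days and 20 weeks was 1.16 ± 0.33 (adjusted p 0.00979 in limma). That fall dropped just under 2-fold without replicate 4 at 10 days (-0.996), or without replicate 1 (-0.996) or 4 (-0.98) at 20 weeks. Peg3 had no called change in NOD islets: NOD means of 8.95 ± 0.58, 9.30 ± 0.20, 8.47 ± 0.47 and 8.78 ± 0.66 gave a difference of -0.17 ± 0.28 between 20 weeks and 10 days (adjusted p 0.69), while its pool was 3.16-fold higher at 20 weeks than at 10 days (9.95 against 8.29). Between 12 and 20 weeks 0 of the 9 genes were called in the NOD channel, where 0.181% of all probes were called higher and 0.0964% lower; at an unadjusted p under 0.05, Igf2, Mest and Dlk1 differed (0.37, 0.48 and 0.44).

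**Figure D3:**
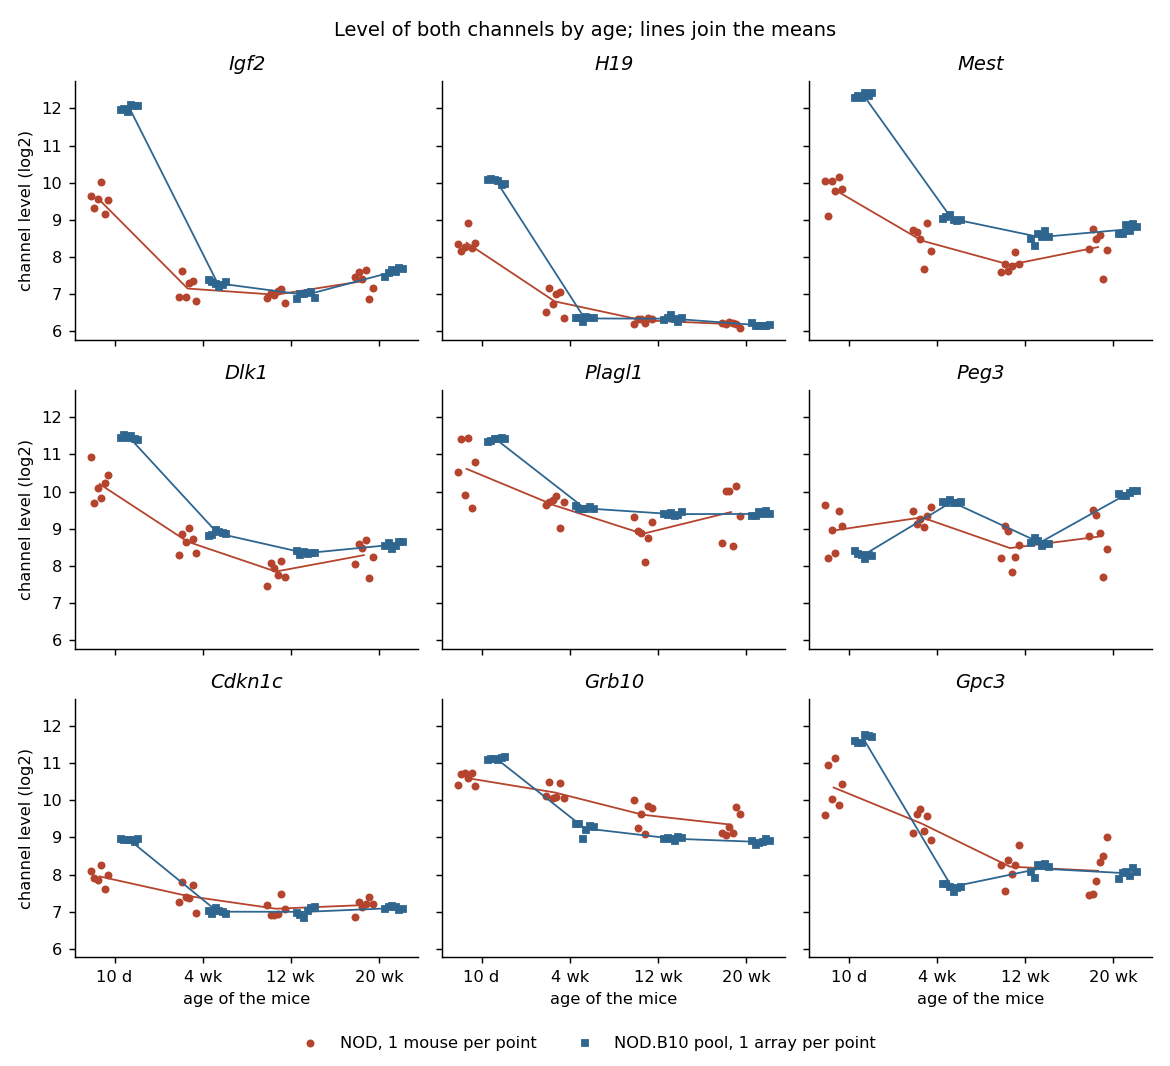
Log2 level of each gene in the NOD channel (red circles, 1 mouse per point) and in the NOD.B10 pool channel (blue squares, repeat readings of 1 pool per age) at the 4 ages; lines join the means. The mean of the pool lies above that of the mice at 10 days for 8 of 9 genes, with 2 of 6 mice above it for Plagl1, and meets them by 4 weeks for Igf2 (7.14 in NOD and 7.28 in the pool), whereas Peg3 shows the opposite order at 10 days (8.95 and 8.29).

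**Figure D4:**
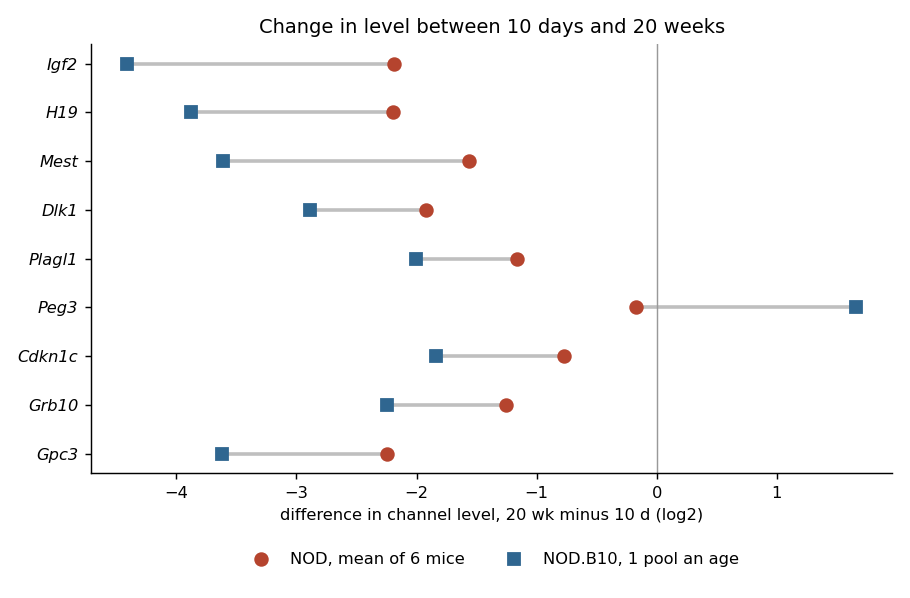
Difference in log2 level between 20 weeks and 10 days for each gene, for NOD (circles, mean of 6 mice per age) and for the NOD.B10 pools (squares, 1 pool per age). The circle lies nearer 0 than the square for all 9 genes, and Peg3 is the gene whose pool was higher at 20 weeks (1.66).

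The change of the ratio with age was tested directly. Between 4 weeks and 10 days, 7 of the 9 genes were called higher in ratio at 4 weeks and 1, Peg3, lower. By probe, 9 of the 16 were called higher and 1 lower, where 4.13% of all probes were called higher and 3.2% lower. Gpc3 had the largest difference of the 9 at 3.01 ± 0.26 (SE, adjusted p 1.99e-08), then Igf2 at 2.33 ± 0.16 (8.82e-10), H19 at 2.11 ± 0.12 (5.51e-11) and Mest at 1.94 ± 0.23 (9.05e-07). Grb10 differed by 1.48 ± 0.14, Cdkn1c by 1.41 ± 0.13 and Dlk1 by 1.02 ± 0.20, and Plagl1 by 0.86 ± 0.32, which was not called, except without replicate 2 or 4 at 10 days (1.03 each). The Peg3 difference was -1.08 ± 0.27 (adjusted p 0.00254 in limma). The dimmer Grb10 probes differed by 0.19 and 0.25 and were not called. The second probes of Dlk1 (0.96), Plagl1 (0.42) and Peg3 (-0.53) were not called either, whereas those of Igf2 (2.01) and H19 (1.69) were. Calls near the 2-fold rule were lost for Dlk1 when replicate 2 (0.91) or 4 (0.94) at 10 days or replicate 2 (0.97) or 4 (0.96) at 4 weeks was left out, and for Peg3 without replicate 1 (-0.96) or 5 (-0.97) at 10 days.

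Slides held 4 arrays each, and 1 slide held 2 mice of each of these ages. Within it the ratio differed by 3.19 for Gpc3, 2.62 for Igf2, 2.14 for H19, 2.04 for Mest, 1.52 for Grb10, 1.68 for Cdkn1c, 0.81 for Dlk1 and -1.42 for Peg3, so each kept its direction. The NOD levels there differed by -2.08 for Igf2, -1.47 for H19, -1.30 for Mest and -1.77 for Dlk1, without overlap of the 2 mice against 2. With slide as a fixed term, Mest lost its call in the NOD level (adjusted p 0.139) and Dlk1 its call in the ratio (adjusted p 0.145). No slide held mice of 12 weeks with mice of 4 weeks, or mice of 20 weeks with mice of 10 days, and for those pairs the alternative fit took slide as a random term. With median centring Dlk1 turned to -0.087, Mest (0.83), Cdkn1c (0.48) and Grb10 (0.36) lost their calls, and Gpc3, Igf2, H19 and Peg3 stayed called between 4 weeks and 10 days. By that scaling the median of all genes was itself 0.38 at 10 days and -0.15 at 4 weeks.

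Later intervals held few ratio changes. Between 4 and 12 weeks the Gpc3 ratio fell by 1.66 ± 0.26 (adjusted p 8.3e-05), the 1 call among the 9 genes, where 2.5% of all probes were called lower and 2.41% higher. With median centring that call was lost (-0.51, adjusted p 0.138), and Peg3 (1.52) and Grb10 (1.04) were called in the other direction. Between 12 and 20 weeks the Peg3 ratio fell by 1.02 ± 0.27 (adjusted p 0.00884), where 0.336% of all probes were called lower and 1.66% higher. The 20-week and 12-week mice overlapped, the call was lost without replicate 2, 3 or 6 at 12 weeks or replicate 5 or 6 at 20 weeks (range -0.999 to -0.790), and on the slide that held 2 mice of each age the difference was -0.56. Between 20 weeks and 10 days 5 genes were called higher (Igf2, H19, Mest, Cdkn1c and Gpc3) and Peg3 lower. By probe, 7 of the 16 were called higher and 1 lower, where 6.28% of all probes were called higher and 4.08% lower. The second Peg3 probe was not called (-0.93). Median centring left Igf2 and Peg3 called; H19 (0.96), Mest (0.85), Gpc3 (0.17) and Cdkn1c (0.12) lost their calls, and Cdkn1c also lost it without the 2 dimmest arrays of 20 weeks (0.98). Dlk1 (0.97), Grb10 (0.98) and Plagl1 (0.84) were under 2-fold there and gained a call when some single mice were left out, for Dlk1 replicate 1 or 6 at 10 days or replicate 1 or 5 at 20 weeks (up to 1.11), for Grb10 replicate 2, 3 or 5 at 10 days or replicate 1, 2 or 4 at 20 weeks (up to 1.04), and for Plagl1 replicate 2 or 4 at 10 days or replicate 4 at 20 weeks (up to 1.02). With median centring the ratios at 10 days and 20 weeks were -0.49 and -0.72 for Dlk1, 0.25 and -0.06 for Grb10, and -0.01 and -0.48 for Plagl1. Each of these genes was thus lower at 20 weeks by that scaling, the other direction. The median of all genes moved that way too and by more, between 0.38 at 10 days and -0.21 at 20 weeks. A moderated F test over the 4 ages, with no fold rule, passed for 9 of the 9 genes and for 73.1% of all probes.

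Other imprinted genes were called at 10 days in 1 direction, higher in NOD. Of 40 listed, 33 were measured, with 3 higher and 0 lower and a median log2 ratio of 0.07, where 1.41% of all probes were called higher and 1.84% lower. The 3 were Ddc, which encodes an enzyme of dopamine and serotonin synthesis (1.30 ± 0.44), Gnas, the stimulatory G protein alpha subunit (1.22 ± 0.36), and Rasgrf1, a Ras exchange factor (1.22 ± 0.32). Meg3, the maternally expressed noncoding RNA of the cluster that holds Dlk1, was lower in NOD at 4 weeks (-1.24 ± 0.09) and 20 weeks (-1.13 ± 0.83). In the NOD level between 20 weeks and 10 days, 3 of the 33 fell and 0 rose, with a median of -0.08. For all probes, 1.3% were called lower there and 2.86% higher. Asb4, among the 3 that fell, differed by -1.38 ± 0.20 (SE).

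Of 21 genes of the insulin-like growth factor pathway, 18 were measured, and 1 was lower and 0 higher in NOD at 10 days. Their median was -0.34, against 0.01 over all genes, and 1.84% of all probes were called lower and 1.41% higher. The gene called lower was Htra1, a secreted protease that cleaves binding proteins of these factors (-1.49 ± 0.64). It was higher in NOD at 12 weeks (1.15 ± 0.40) and 20 weeks (1.99 ± 0.49). At 4 weeks 2 of the 18 were higher, Stc2, which encodes an inhibitor of a protease that cleaves such binding proteins (1.53 ± 0.40), and Igf1, the growth factor that predominates after birth (1.02 ± 0.29). For all probes, 1.57% were called higher at that age and 0.717% lower. Irs1, an adaptor of the insulin and insulin-like growth factor receptors, fell in NOD islets by 1.54 ± 0.16 (SE) between 10 days and 20 weeks. Of 17 other fetal growth and oncofetal genes, 10 were measured, 0 were called at 10 days in either direction, and their median was -0.10.

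Markers of other cell types moved at the same ages, and their part in the results above was not tested. For all probes, 1.84% were called lower in NOD at 10 days and 1.41% higher. At 10 days 10 of 15 stellate cell and fibroblast markers were lower in NOD and 0 higher, with a median log2 ratio of -1.28; among them were the collagen genes Col1a2 (-2.08 ± 0.92) and Col3a1 (-1.86 ± 0.74), and Sparc, a matrix protein (-1.24 ± 0.65). Their mean level ran between 9.09 and 10.48 over the NOD mice, against 11.08 to 11.15 in the pool, and all 15 were above background on every array of that age. Of the adipocyte markers 5 of 5 measured were lower (median -1.40): Adipoq, the adipocyte hormone, was above background on 1 of 6 NOD arrays and 6 of 6 pool arrays. Plin1 was above it on 2 NOD arrays and 6 pool arrays. Without the pool arrays of 10 days neither gene would have entered the fits, so their lower ratio at that age was largely set by that rule. Endothelial markers were lower for 3 of 12 (median -0.64) and B cell markers for 3 of 6 (median -0.68). Beta cell markers were higher in NOD for 8 of 15 (median 1.12), with a mean level between 9.92 and 11.09, against 9.42 to 9.61 in the pool; Ins2 was at 1.83 ± 0.86 and Glp1r was above background on 0 pool arrays. Markers of other endocrine cells were higher for 5 of 9 (median 1.03), among them Gcg, which encodes glucagon (2.21 ± 0.65).

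At 4 weeks, where Gpc3 was higher in NOD, 11 of 13 acinar markers were higher too (median 1.49), with a mean level between 15.64 and 16.17, against 14.28 to 14.57 in the pool, and 6 of 15 beta cell markers were lower (median -0.88). Stellate cell markers had 0 calls there (median 0.39). For all probes, 1.57% were called higher at 4 weeks and 0.717% lower, and at 20 weeks 3.23% higher and 0.98% lower. At 20 weeks, where Peg3 was lower in NOD, 11 of 15 beta cell markers were lower (median -1.29), 5 of 15 stellate cell markers were higher (median 0.91) and 8 of 10 T cell markers were higher (median 2.56). In the NOD level between 20 weeks and 10 days, beta cell markers had 1 call, a lower one, among 15 (median 0.13), stellate cell markers fell for 5 and rose for 1 of 15 (median -0.37), and cell cycle genes fell for 5 of 18 (median -0.59). Immune markers shifted most among the lists there: T cell markers rose for 7 of 10 (median 1.88), B cell markers for 5 of 6 (median 1.94) and macrophage and dendritic cell markers for 7 of 8 (median 1.73). For all probes, 1.3% were called lower and 2.86% higher in that comparison.

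**Figure D5:**
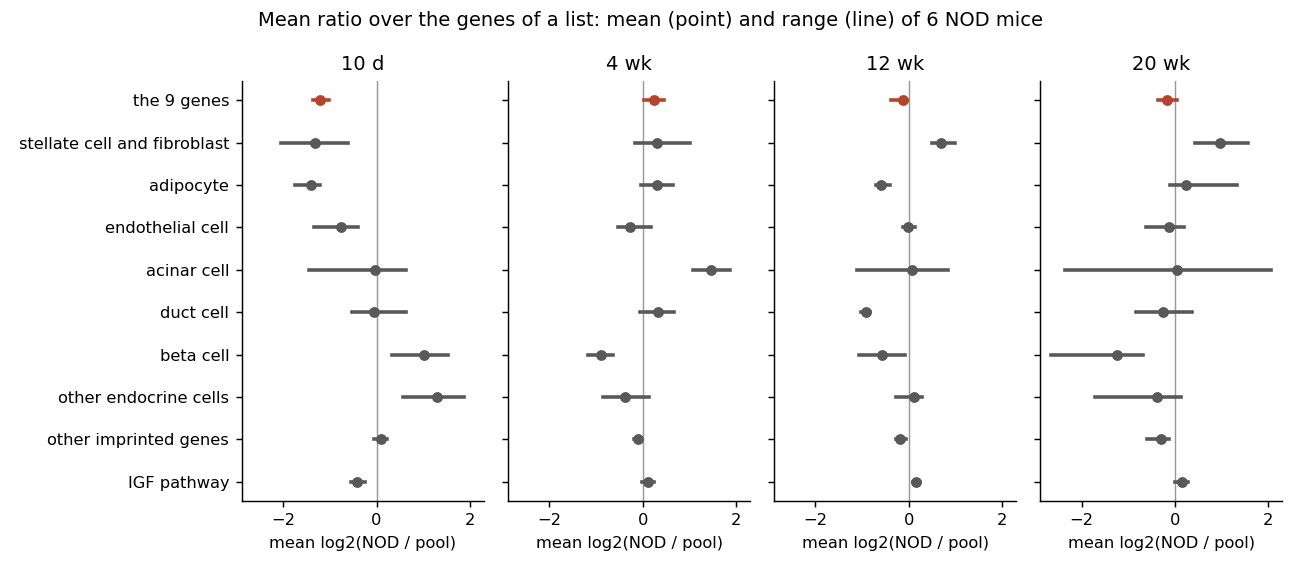
Mean log2 ratio (NOD over pool) over the genes of each list at the 4 ages; points are the mean and lines the range of 6 NOD mice. At 10 days the 9 growth genes (mean -1.21), the stellate cell and fibroblast markers (-1.32) and the adipocyte markers (-1.41) lie left of 0 and the beta cell markers (1.01) right of it, while other imprinted genes lie at 0.10. Among the 5 adipocyte genes, Adipoq and Plin1 entered the fits only through the pool arrays of 10 days. Their part of that mean was largely set by the rule for entry.

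Across the 24 NOD levels, H19 ranked 2 of 18042 genes by Pearson r with Igf2 (0.94), after Igf2 itself. Dlk1 ranked 8 (0.92), Mest 24 (0.89), Cdkn1c 171 (0.82), Gpc3 754 (0.71), Plagl1 1039 (0.67), Grb10 1532 (0.61) and Peg3 7536 (0.11). Among genes outside the 9, the 6 most like Igf2 were Syne2 (0.94), Serpine2 (0.93), Nrep (0.92), Mat2a (0.92), Ghrl (0.92) and Acot1 (0.92). Those most like the mean of the 9 standardised genes were Acot1 (0.94), Nrep (0.94), Ghrl (0.94), Shisa2 (0.93), Capn6 (0.93) and Tmeff1 (0.92). The 24 points share age, slide and normalization, and much of such an r is the step after 10 days. In deviations from the age means, Igf2 and H19 kept an r of 0.75 and Serpine2 0.66, whereas Acot1 had 0.01; among the 9 genes the values ran between -0.64 (Peg3 with Gpc3) and 0.75.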

How the data were processed

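RNA from islets of 24 single NOD mice, 300 ng per labelling, was hybridised with age-matched pool RNA on 2-colour Agilent arrays of design 014868, per the labels' protocols and the file headers. The deposited scanner files hold spot intensity for each channel and a log10 ratio, written by Feature Extraction 10.7.3.1 with probe positions on mm9, per the file headers. The deposited value table holds log2 ratios of NOD over pool, not centred, as found by setting it against the scanner files' log10 ratios, and was used as an alternative. How the authors tested their values is not given in the sources used here.

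From the mean and background intensity, limma 3.58.1 in R 4.3.3 (statmod 1.5.0, package data.table, version 1.17.8) gave log2 ratios by normexp correction (offset 50) and loess within each array, with control spots at weight 0 and spots with an outlier flag left out. Spots of 1 probe were averaged. Log2 levels of each channel followed from the same values after Aquantile scaling; the offset brings dim levels together near 6, which understates the folds of dim genes. Of 41174 probes, 25931 entered the fits, and 18085 genes stood by their brightest probe. Probe names were updated through RefSeq by accession for 27050 probes and by symbol for 4154. Linear models over all 24 arrays with eBayes tested the ratio at each age, differences between ages, and differences in NOD level. Benjamini-Hochberg adjustment ran over all probes kept, and the fits were tested on simulated data.

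Samples were grouped by the labelled age. Nothing in the labels states that mice of different ages with the same replicate number were related: over 36 same-numbered pairs, 11 deviated together with r over 0.1 (range -0.40 to 0.62), so the numbers were not used as pairs. Slides, 6 of 4 arrays, had a correlation of -0.09 in the ratio. The number of arrays limits the precision. The 9 genes and the gene lists were chosen with earlier results of these data known; from the pathway lists, up to 4 called genes per list and direction with mice of 1 sign, or groups without overlap, were named, and from marker lists up to 3 of the highest mean intensity. Adipoq, Plin1 and Glp1r were named after their detection was seen. Alternatives were other background and scaling choices, filters, 1 probe per gene, slide and replicate blocks, and leaving out arrays.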

Additional observations from a re-analysis of the deposited data

Results flagged for a closer look

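Single mice lay far from the other 5 of their age, by Dixon's criterion on the gap over the range, in 4 of 72 groups tested, and chance gives about 1 in 20. H19 in the NOD channel at 10 days was 8.91 in replicate 4, against 8.15 to 8.37 in the others. Mest in the NOD channel at 10 days was 9.11 in replicate 2, against 9.77 to 10.15 in the others. Replicate 5 at 4 weeks was low for Plagl1 in both measures, with a log2 ratio of -0.54, against 0.04 to 0.36 in the others, and a NOD level of 9.03, against 9.64 to 9.89.

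By the rule for calls, the log2 ratio of NOD to pool differed between ages in 16 comparisons of 1 gene and 2 ages. For 4 weeks against 10 days these were 8 of the 9 genes, where 4.13% of all probes were called higher and 3.2% lower. For 20 weeks against 10 days they were 6 of the 9, where 6.28% were called higher and 4.08% lower. The later intervals held 1 each, where 2.41% and 1.66% were called higher and 2.5% and 0.336% lower. At 4 weeks against 10 days the differences were 3.01 for Gpc3, 2.33 for Igf2, 2.11 for H19, 1.94 for Mest, 1.48 for Grb10, 1.41 for Cdkn1c, 1.02 for Dlk1 and -1.08 for Peg3. At 20 weeks against 10 days they were 2.22 for Igf2, 2.05 for Mest, 1.69 for H19, 1.37 for Gpc3, 1.07 for Cdkn1c and -1.83 for Peg3. Gpc3 differed by -1.66 at 12 weeks against 4 weeks, and Peg3 by -1.02 at 20 weeks against 12 weeks. Each difference contains that between 2 pools, whose part was not tested. Several of these calls were lost with median centring, among them Dlk1 at 4 weeks (-0.087) and Cdkn1c at 20 weeks (0.12), each against 10 days.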

How the results depend on the processing

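Counts below are of the 9 genes called. Median centring changed them most: the ratio at 10 days had 3 calls in place of 5, at 12 weeks 1 in place of 0, and the differences in ratio had 4 in place of 8 (4 weeks against 10 days), 2 in place of 1 (12 weeks against 4 weeks, where Gpc3 lost its call at -0.51 and the 2 were Peg3 and Grb10, both higher), 4 in place of 1 (20 weeks against 12 weeks) and 2 in place of 6 (20 weeks against 10 days). It also reversed Dlk1 at 4 weeks against 10 days (-0.087), Grb10 at 12 weeks against 4 weeks (1.04), and Dlk1 (-1.02) and Gpc3 (-1.23) at 20 weeks against 12 weeks. By median centring the median of all genes was itself 0.38, -0.15, 0.50 and -0.21 at 10 days, 4 weeks, 12 weeks and 20 weeks. The scanner's processed signals and the deposited table each gave 3 calls at 4 weeks and 2 at 12 weeks, and an offset of 0 gave 2 and 1, with 2 at 12 weeks against 4 weeks. For the NOD level at 12 weeks against 4 weeks, an offset of 0 gave 3 calls and the scanner signal set to its 75th percentile gave 4, in place of 1. Without the 2 dimmest arrays of 20 weeks, the calls at 20 weeks and at 20 weeks against 12 weeks went to 0, and a fixed slide block also gave 0 for the last; the cause of these shifts was not tested. Leaving out 1 mouse gave 5 to 6 calls at 10 days, 1 to 2 at 4 weeks, 0 at 12 weeks and 0 to 1 at 20 weeks; in ratio differences 7 to 8, 1, 0 to 1 and 6 to 8, in the order above; in NOD level 4 to 6, 1, 0 and 6 to 7; and 8 to 9 in the F test. With the replicate block the ratio differences had 8, 1, 1 and 6 calls, the NOD level 4, 1, 0 and 7 and the F test 8, so no count moved by over 1.5 times. Of single-gene values outside leaving out 1 mouse, 1061 kept their side of the rule, 34 gained a call and 17 lost a call. Another 4 reversed with a call before or after. A change of sign between values under the rule was counted among the 1061. Grb10 at 10 days was such a case, at -0.52 with loess and 0.25 with median centring. Depth limits H19 after 4 weeks and the dimmest probes of Igf2, Plagl1 and Grb10, which were near background at 12 weeks.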
